A study of Canis lupus familiaris with 15 samples.

Results

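The corpora lutea (CL) of non-pregnant dogs in luteal regression were compared with those of dogs at mid-gestation by RNA-Seq, with 1 library per dog. The comparison takes the 2 dogs labelled luteal regression and the 5 labelled mid-gestation, 7 of the 15 dogs of the series, and every gene whose count averaged 10 or more in either group, which left 14685 of the 23630 genes in the table. The luteal regression dogs were not pregnant and their CL were taken on day 65 after ovulation, whereas the mid-gestation dogs were pregnant and were sampled on days 35 to 40. None of the 7 received a drug or carried a genetic change, and the CL came from surgery on clinically healthy adult dogs of mixed breed whose individual ages are not given in the sources used here. The other 8 dogs, 3 at prepartum luteolysis and 5 given the antigestagen aglepristone at 10 mg/kg and sampled on days 40 to 45, entered the fit so that the spread between dogs could be estimated from all 15 libraries. Pregnancy and the day after ovulation differ together between the groups and cannot be told apart. The study names permits from authorities in Giessen, Germany, and Ankara, Turkey, but the place of collection of each dog is not given in the sources used here. Whether place differs between the groups along with pregnancy and day could not be checked. Its part in the ratios was not tested. Mid-gestation dog 1 has a description that gives the antigestagen group's number, while its title and condition give mid-gestation, which was followed.

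A canine pregnancy depends on progesterone (P4) from the ovaries until birth, as the placenta does not take over its production. P4 profiles are similar in pregnant and non-pregnant bitches for most of the luteal phase. Pregnancy ends with a rapid prepartum luteolysis, whereas the CL of a non-pregnant bitch regresses slowly, without an acute luteolytic signal from the uterus. Luteal cells make P4 from cholesterol, and the tissue also holds endothelial cells, pericytes, fibroblasts and macrophages. In whole tissue, fewer cells of a type and less RNA per cell cannot be told apart.

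The total count was 16648029 and 16523232 in the luteal regression dogs and between 18313707 and 26284315 at mid-gestation. Levels are given as CPM, the count relative to the TMM-scaled library size, and a log2 ratio is that of luteal regression over mid-gestation with its SE. A gene was a differentially expressed gene (DEG) where the unadjusted p-value was below 0.01 and its adjusted value below 0.1 in edgeR's quasi-likelihood F-test over all 15 dogs. As a check for libraries deposited more than once, replicate counts were set against sampling noise. The chi-squared per degree of freedom was 39.9 between the luteal regression dogs and between 70.3 and 148 for pairs of mid-gestation dogs, whereas a repeat of 1 library would leave it close to 1. The median SD of a gene's log2 CPM was 0.16 in luteal regression and 0.34 at mid-gestation, and 0.40 and 0.41 in luteolysis and after antigestagen. A gene symbol could be paired with 2893 of the genes tested, or 19.7%. The symbols come from the study's lists of DEG in its other contrasts, which share these dogs, so the named genes are not an unselected sample. A gene of the lists below could be tested by name only if it had such a symbol, and "tested" has this sense there. The median log2 ratio was -0.09 among genes with a symbol and -0.02 over all genes tested. The share of ratios below 0 among genes with a symbol was not computed.

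No gene was a DEG between luteal regression and mid-gestation in the 15-dog edgeR test (0% of 14685). The smallest adjusted p-value of edgeR was 0.319, shared by 880 genes. At an unadjusted p-value below 0.05 there were 2073 genes (14.1%), and below 0.01 there were 428 (2.91%), of which 150 (1.02%) were higher and 278 (1.89%) lower in luteal regression. The count of DEG depended on which dogs and which tool gave the spread. The same test on the 7 dogs alone gave 770 DEG (5.24%), 224 (1.53%) higher and 546 (3.72%) lower. An adjusted threshold of 0.05 was not tried on this 7-dog fit. For the 10 genes of smallest p-value named below in each direction, its adjusted p-values lay between 0.0533 (CCND3) and 0.0894 (TMEM2). DESeq2 on all 15 dogs gave 332 (2.26%) and limma-voom with a quality weight for each dog gave 2741 (18.7%). The study used DESeq2's Wald test, with the same thresholds, for its own contrasts. The 0 of edgeR is therefore not to be set beside the study's counts of DEG. The 770 in turn rested on single dogs: they became 1 without mid-gestation dog 4, 73 without mid-gestation dog 3, 0 without luteal regression dog 1 and 3 without luteal regression dog 2, but 1515 without mid-gestation dog 2. No gene was a DEG in all of these 7-dog fits, which follows from the fit without luteal regression dog 1 and says nothing about single genes. With all 15 dogs, leaving out luteal regression dog 2 gave 1 DEG, TLN2, and leaving out any other dog gave 0. The common dispersion, the squared coefficient of variation between dogs beyond counting noise, was 0.122 over the 15 dogs and 0.0933 over the 7.

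**Figure D1:**
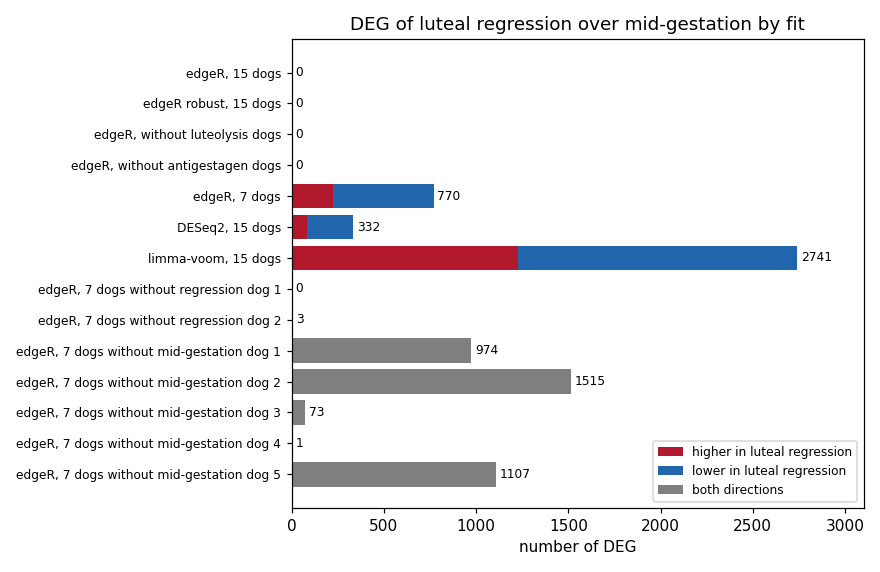
Number of DEG of luteal regression over mid-gestation (horizontal axis) in each fit, with genes higher and lower in luteal regression in red and blue and both directions together in grey for the fits that leave out a dog. The 15-dog edgeR fits and those without luteolysis or antigestagen dogs gave 0, the 7-dog fit gave 770 and its leave-out fits ranged from 0 to 1515.

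The values below therefore describe levels in these 7 dogs, and none of the genes named passed the adjusted threshold of the 15-dog edgeR test. As a measure of how often the groups separate, both luteal regression dogs lay above all 5 mid-gestation dogs for 2064 genes (14.1%) and below all 5 for 2417 (16.5%). Among the genes with a symbol these shares were 16.3% and 22.5%. For a count of called genes in a list below, the share among all genes with a symbol is the one to read it against. At an unadjusted p-value below 0.01 this share was 7.98% (2.63% higher and 5.36% lower) and below 0.05 it was 24%. It was 10.8% for DEG of the 7 dogs, 6.77% for DESeq2 and 27.6% for limma-voom. In total 252 genes (1.72%) were DEG in each of the 7-dog, DESeq2 and limma-voom fits, 57 higher and 195 lower in luteal regression, and 5.43% of the genes with a symbol. The 3 fits share the 7 dogs and are not independent of each other.

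**Figure D2:**
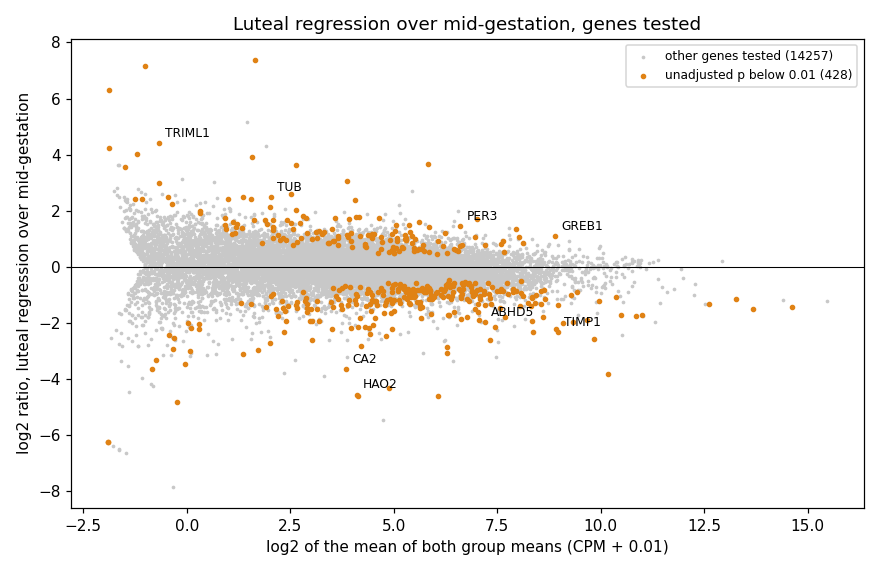
Log2 ratio of luteal regression over mid-gestation (vertical axis) against the log2 of the mean of both group means in CPM (horizontal axis) for the 14685 genes tested. The 428 genes with an unadjusted p-value below 0.01 are orange, 150 above and 278 below 0, and none of them was a DEG.

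Among the genes with a symbol that were DEG in all 3 of these fits and whose groups did not overlap, those of smallest p-value in the 15-dog test that were higher in luteal regression were FIGNL1, RIC3, TLN2, LCT, TUB, ENGASE, TMEM2, PTK2B, PHKA2 and TRIML1. FIGNL1, an AAA ATPase of homologous recombination repair, was at 23.8 and 19.9 CPM in the luteal regression dogs and at 10.2, 8.58, 10.4, 9.86 and 8.52 CPM in the mid-gestation dogs, a log2 ratio of 1.20 ± 0.22. Both luteal regression dogs were about alike and the mid-gestation dogs spanned a narrow range below them. RIC3, a chaperone of nicotinic acetylcholine receptors, was at 21.3 and 15.7 CPM against 4.98, 5.65, 5.49, 4.38 and 7.44 CPM, a log2 ratio of 1.72 ± 0.33. TUB, the tubby protein of neurons and cilia, was at 6.89 and 6.87 CPM against 1.26, 0.616, 0.757, 1.20 and 2.26 CPM, a log2 ratio of 2.48 ± 0.57. The luteal regression dogs were again alike, but the mid-gestation dogs varied several-fold at a low level. TLN2, a talin that links integrins to actin, was at 127 and 41.9 CPM against 34.2, 33.0, 32.4, 28.9 and 28.8 CPM. For this gene the luteal regression dogs differed from each other by far more than the mid-gestation dogs did, and dog 2 stood only just above them. Without dog 2 the log2 ratio of TLN2 was 2.02 with an adjusted p-value of 0.00463 in edgeR, but luteal regression was then dog 1 alone, assumed to vary like the dogs of the other groups. With both dogs the ratio was 1.43 ± 0.29. ENGASE, which removes N-glycans in the cytosol, had the same pattern, at 34.5 and 11.4 CPM against between 4.56 and 9.24 CPM.

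PTK2B, a focal adhesion kinase that responds to calcium, was at 26.2 and 23.7 CPM against between 9.18 and 13.7 CPM, and PHKA2, the liver alpha subunit of phosphorylase kinase, at 62.4 and 48.7 CPM against between 25.9 and 32.7 CPM. Their log2 ratios were 1.11 ± 0.26 and 0.86 ± 0.20. TMEM2, a membrane protein of hyaluronan turnover, was at 75.4 and 42.8 CPM against between 19.4 and 37.7 CPM. LCT, lactase, was at 7.92 and 5.13 CPM against between 1.19 and 1.75 CPM. TRIML1 was near the limit of detection at 1.81 and 0.564 CPM against between 0 and 0.154 CPM. At a much higher level, GREB1, a coregulator induced by oestrogen, was at 685 and 616 CPM in luteal regression and at 260.4, 288, 302, 258 and 399 CPM at mid-gestation, a log2 ratio of 1.11 ± 0.30. GREB1 was chosen after its values were seen.

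**Figure D3:**
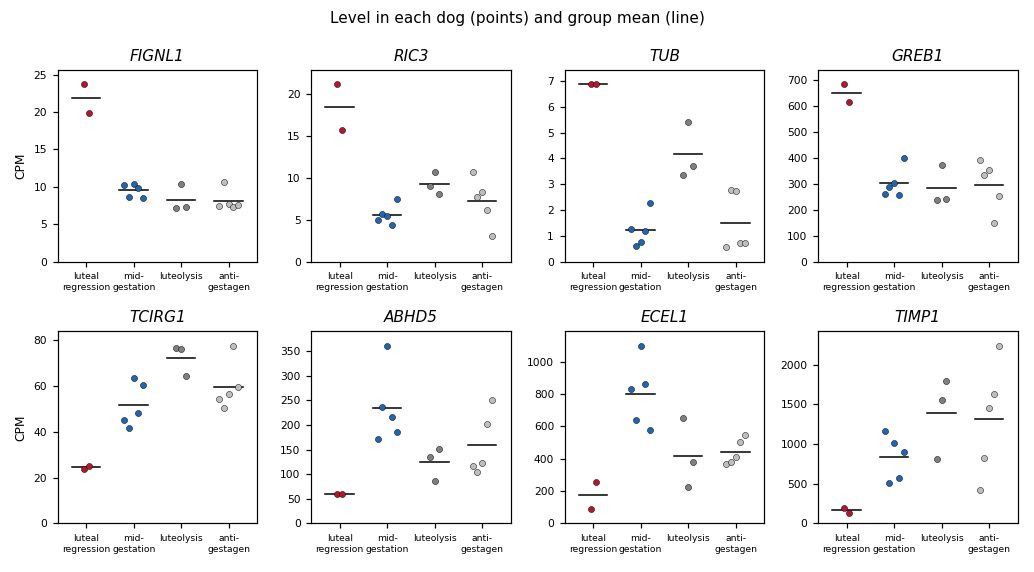
Level in CPM (vertical axis, from 0) of 4 genes higher and 4 genes lower in luteal regression than at mid-gestation, with 1 point per dog and a line at the mean of each of the 4 groups. The 2 luteal regression dogs lie above the 5 mid-gestation dogs for FIGNL1, RIC3, TUB and GREB1 and below them for TCIRG1, ABHD5, ECEL1 and TIMP1.

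By the same rule, the genes lower in luteal regression were TCIRG1, ABHD5, ME2, CA2, ECEL1, CCND3, TMEM63B, CD248, FAM167B and ISLR. ECEL1, an endothelin-converting-enzyme-like protease, was at 88.8 and 258 CPM in luteal regression and at 829, 642, 1098, 860.5 and 576 CPM at mid-gestation, a log2 ratio of -2.21 ± 0.46. Its luteal regression dogs differed from each other but both lay below every mid-gestation dog. CA2, a carbonic anhydrase, was at 1.91 and 2.36 CPM against 65.4, 6.37, 24.2, 20.4 and 17.5 CPM, a log2 ratio of -3.65 ± 0.75. Mid-gestation dog 1 was far above the others for CA2 and dog 2 far below. ME2, the mitochondrial malic enzyme, was at 93.9 and 108 CPM against 252, 233, 335, 240.2 and 331 CPM, a log2 ratio of -1.46 ± 0.30.

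CCND3, a D-type cyclin, was at 14.8 and 17.9 CPM against 52.7, 35.6, 51.2, 52.2 and 49.5 CPM, a log2 ratio of -1.56 ± 0.34. Except for mid-gestation dog 2, the mid-gestation dogs lay close together. TMEM63B, an ion channel that senses membrane stretch, was at 65.3 and 60.1 CPM against between 110.1 and 188 CPM, ISLR, a stromal protein of the immunoglobulin superfamily, at 42.9 and 31.7 CPM against between 69.1 and 163 CPM, and FAM167B at 3.76 and 4.26 CPM against between 10.8 and 23.6 CPM. Another 3 genes, HAO2, SGCA and KLK1, were chosen after their values were seen. HAO2, a peroxisomal hydroxyacid oxidase, was at 0.391 and 2.41 CPM against between 13.1 and 58.4 CPM, a log2 ratio of -4.56 ± 1.13. SGCA, the alpha sarcoglycan, was at 62.6 and 66.6 CPM against between 225 and 364 CPM and KLK1, tissue kallikrein, at 361 and 158 CPM against between 664 and 3073 CPM.

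The machinery of steroid synthesis could be seen only in part, since STAR, CYP11A1, HSD3B2 and CYP19A1 were not paired with an identifier. Of the 18 genes listed for it, 3 were tested, and for 1 the unadjusted p-value was below 0.01. HSD17B12, which reduces oestrone and also serves fatty acid elongation, was lower in luteal regression at 133 and 159 CPM against 348, 284, 477, 338 and 470.4 CPM, a log2 ratio of -1.40 ± 0.36. HSD3B7, an enzyme of oxysterol and bile acid metabolism, was at 38.1 and 39.9 CPM against 65.4, 52.8, 65.4, 61.8 and 55.7 CPM, a log2 ratio of -0.63 ± 0.25. Both luteal regression dogs lay below all mid-gestation dogs for these genes. CYP17A1, the 17-alpha-hydroxylase of androgen synthesis, overlapped between the groups at 589.5 and 857 CPM against 416, 268, 514, 808 and 358 CPM, a log2 ratio of 0.61 ± 0.58 with a 95% interval from -0.61 to 1.84.

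Cholesterol synthesis was tested through 4 of its 23 listed genes, all of them lower in luteal regression and 3 with an unadjusted p-value below 0.01. Their median log2 ratio was -1.66, against -0.02 over all genes tested and -0.09 over those with a symbol. CYP51A1, the lanosterol demethylase, was at 39.2 and 47.5 CPM against 193, 56.5, 119.8, 104 and 187 CPM, a log2 ratio of -1.61 ± 0.47. MVD, which makes isopentenyl diphosphate, was at 19.8 and 19.6 CPM against 59.3, 33.2, 40.6, 47.2 and 43.3 CPM, a log2 ratio of -1.18 ± 0.36. For both genes mid-gestation dog 2 was the lowest of its group. INSIG1, the sterol sensor that holds back this pathway, was at 41.8 and 47.6 CPM against 476, 41.9, 215, 258 and 384 CPM, a log2 ratio of -2.62 ± 0.82. The groups overlapped for INSIG1, because mid-gestation dog 2 was as low as the luteal regression dogs. TM7SF2, a sterol reductase, was at 65.3 and 58.3 CPM against 296, 134, 200.3, 154 and 230.5 CPM, a log2 ratio of -1.72 ± 0.61. Of the listed uptake genes only VLDLR, a lipoprotein receptor, had a symbol. It was higher in luteal regression, at 33.2 and 25.9 CPM against 19.5, 11.0, 16.2, 10.8 and 11.0 CPM, a log2 ratio of 1.11 ± 0.30. The 4 synthesis genes were DEG in limma-voom and in DESeq2, and MVD and TM7SF2 in the 7 dogs.

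Of the 9 genes tested for lipid storage and adipocytes, 8 had a ratio below 0 and 2 had an unadjusted p-value below 0.01, PNPLA2 and ABHD5. PNPLA2, the adipose triglyceride lipase, was at 29.6 and 32.0 CPM in luteal regression against 60.0, 50.8, 73.4, 68.8 and 43.1 CPM, a log2 ratio of -0.94 ± 0.27. ABHD5, the coactivator of this lipase, was at 59.0 and 60.5 CPM against 172, 237, 361, 216 and 185 CPM, a log2 ratio of -1.97 ± 0.40. Both genes were lower in each luteal regression dog than in any mid-gestation dog. In glycolysis and hypoxia 10 of 11 genes had a ratio below 0, with a median of -0.31, and 1 had an unadjusted p-value below 0.01. That gene was TPI1, triosephosphate isomerase, at 253 and 304 CPM against 694, 695, 799.8, 685 and 714 CPM, a log2 ratio of -1.36 ± 0.36. PFKL, the liver phosphofructokinase, was at 112 and 143 CPM against between 192 and 410.3 CPM.

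Steroids and other small molecules are inactivated by a further group, of which 5 genes were tested. UGT1A6, a glucuronosyltransferase, was at 1.12 and 1.59 CPM against 20.7, 33.8, 103, 9.39 and 1.54 CPM, a log2 ratio of -4.63 ± 1.28. Mid-gestation dog 5 was as low as the luteal regression dogs and dog 3 was far above the others. The genes of the UGT1 cluster share exons, so the value is uncertain. HSD11B2, which inactivates cortisol, was at 70.6 and 129 CPM against between 139 and 325 CPM and CYP1B1, which hydroxylates oestrogens, at 407 and 455 CPM against between 154 and 325 CPM, a log2 ratio of 0.98 ± 0.42. SULT1E1, oestrogen sulphotransferase, was near 1 CPM in both groups.

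None of the 10 tested receptors for luteotropic and steroid hormones had an unadjusted p-value below 0.01. NR3C1, the glucocorticoid receptor, was at 160.1 and 148 CPM against 128, 93.7, 118, 108 and 108 CPM, a log2 ratio of 0.47 ± 0.18, and both luteal regression dogs lay above all others. ESR1, the alpha oestrogen receptor, overlapped at 19.2 and 27.4 CPM against between 14.4 and 27.7 CPM, as did PRLR, the receptor of the main luteotropic hormone in the dog, at 104 and 65.8 CPM against between 67.3 and 145 CPM. Their log2 ratios were 0.30 ± 0.39 and -0.30 ± 0.29, with 95% intervals from -0.53 to 1.14 and from -0.92 to 0.32. RXFP1, the relaxin receptor, was at 17.8 and 10.1 CPM against 15.8, 3.85, 2.65, 5.79 and 11.1 CPM, and FSHR at 614 and 609 CPM against between 617 and 1139 CPM. ADIPOR1, an adiponectin receptor, was at 83.9 and 92.1 CPM against between 115 and 169 CPM. LHCGR and PGR were not paired with an identifier.

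Of 6 luteal transcription factors tested, none had an unadjusted p-value below 0.01, and their median log2 ratio was 0.02. GATA4 was at 118 and 126 CPM against between 91.2 and 134 CPM and GATA6 at 32.3 and 50.6 CPM against between 24.6 and 37.4 CPM, with log2 ratios of 0.13 ± 0.22 and 0.39 ± 0.23. YY1 was at 198 and 194 CPM against between 175 and 244 CPM. ZBTB16, a target of the glucocorticoid and P4 receptors, was at 5.23 and 10.1 CPM against between 2.98 and 8.50 CPM. For these genes the groups overlapped, whereas CEBPB was at 6.21 and 7.33 CPM against between 9.70 and 19.3 CPM without overlap, a log2 ratio of -0.89 ± 0.50. KANK4, a regulator of the actin cytoskeleton, was at 46.2 and 43.9 CPM against between 37.3 and 47.8 CPM.

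In the prostaglandin pathway 1 of 7 genes had an unadjusted p-value below 0.01. PTGES, the terminal synthase of PGE2, which supports the early canine CL, was lower in luteal regression at 7.67 and 13.1 CPM against 34.4, 34.3, 51.3, 37.2 and 25.7 CPM, a log2 ratio of -1.81 ± 0.54. No dog of one group reached the other. AKR1B1, an aldose reductase that can form PGF2alpha, was at 10.7 and 5.64 CPM against 13.1, 40.9, 84.2, 58.0 and 13.0 CPM, a log2 ratio of -2.36 ± 0.88. Mid-gestation dogs 1 and 5 lay just above the luteal regression dogs and the other three far above. TBXA2R, the thromboxane receptor, was below 1 CPM in both luteal regression dogs, against between 1.65 and 3.39 CPM. SLCO2A1, the prostaglandin transporter, overlapped between the groups at 3.86 and 4.00 CPM against between 2.26 and 25.4 CPM. Of 13 genes of cAMP signalling, 0 had an unadjusted p-value below 0.01 in the edgeR test and 1 below 0.05. That gene, the adenylate cyclase ADCY2, was at 29.0 and 28.7 CPM against between 11.9 and 20.3 CPM. DESeq2 made 0 and limma-voom made 3 of the 13 DEG. Another cyclase, ADCY4, was at 34.5 and 19.7 CPM against between 19.8 and 70.1 CPM.

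**Figure D4:**
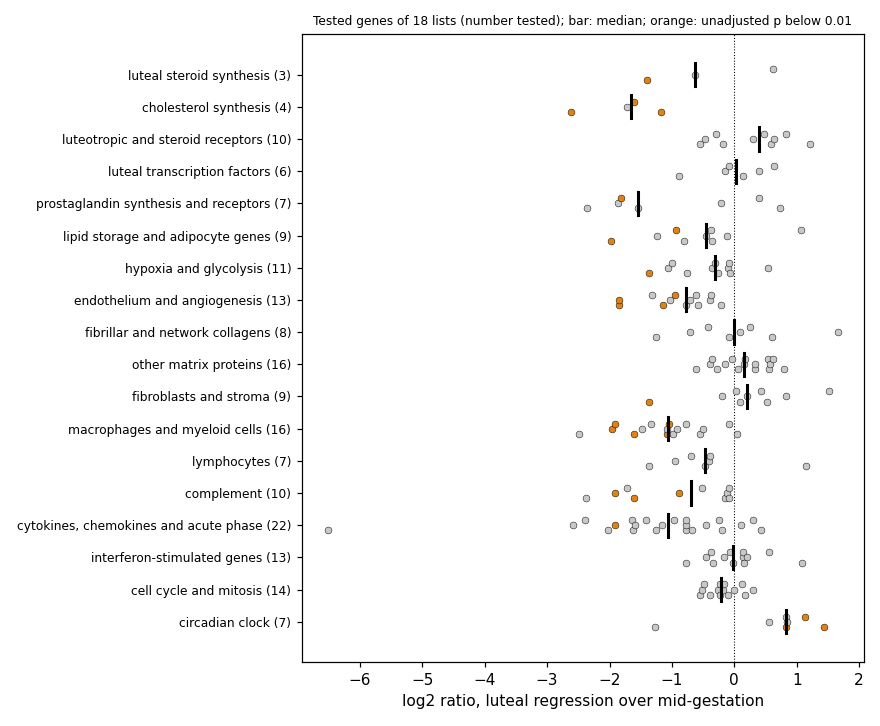
Log2 ratio of luteal regression over mid-gestation (horizontal axis) for the tested genes of 18 lists, with 1 point per gene, the number tested in brackets and a bar at the median. The 13 endothelial and 10 complement genes all lie below 0, and 6 of the 7 clock genes lie above it.

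All 13 endothelial and angiogenic genes tested had a ratio below 0, with a median of -0.77, against -0.09 over all genes with a symbol. For 4 the unadjusted p-value was below 0.01. VEGFC, the lymphatic and vascular growth factor, was at 24.9 and 19.2 CPM against 69.1, 42.1, 112, 72.6 and 102 CPM, a log2 ratio of -1.84 ± 0.48. FLT4, its receptor, was at 46.0 and 43.0 CPM against 81.2, 58.2, 110.1, 95.8 and 83.4 CPM, a log2 ratio of -0.95 ± 0.28. ESM1, a proteoglycan of endothelial tip cells, was at 5.38 and 10.4 CPM against 37.1, 27.9, 25.0, 37.5 and 14.6 CPM, a log2 ratio of -1.85 ± 0.53. These groups did not overlap. ENG, endoglin, was at 64.3 and 71.1 CPM against 224, 64.8, 159.7, 152 and 151 CPM, and VWF, von Willebrand factor, at 120.1 and 124 CPM against 292, 137, 231, 234 and 351 CPM. In both, mid-gestation dog 2 was close to the luteal regression dogs. ROBO4, a guidance receptor of endothelium, was at 35.2 and 33.0 CPM against between 46.0 and 114 CPM. The summed level of the 13 genes was between 482 and 493 CPM in luteal regression and between 514 and 1150 CPM at mid-gestation, with dog 2 the lowest, and none of them was at 0 in any of the 7 dogs. Among the defining markers, PECAM1 and TEK were tested and overlapped between the groups.

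The tested genes of macrophages and other myeloid cells were mostly lower as well. Of 16 tested, 15 had a ratio below 0. The median of the 16 was -1.06, against -0.09 over all genes with a symbol. For 5 the unadjusted p-value was below 0.01, and 10 lay below all mid-gestation dogs in both luteal regression dogs. That separation held for 22.5% of the genes with a symbol. TCIRG1, the subunit of the vacuolar proton pump used by osteoclasts and phagocytes, was at 23.9 and 25.2 CPM against 45.3, 41.9, 63.8, 48.4 and 60.6 CPM, a log2 ratio of -1.08 ± 0.21. ITGAM, CD11b, was at 3.37 and 3.03 CPM against 14.7, 6.99, 14.3, 8.66 and 17.4 CPM, a log2 ratio of -1.95 ± 0.57. SNX10, a sorting nexin of endosomes, was at 56.2 and 46.4 CPM against between 89.3 and 141 CPM. C1QB and C1QC, chains of the complement component C1q made by macrophages, were at 45.1 and 67.1 CPM and 55.7 and 72.9 CPM against between 132 and 329.8 CPM and between 123 and 315 CPM, with log2 ratios of -1.91 ± 0.55 and -1.61 ± 0.53. The summed level of the 16 genes was between 967 and 1093 CPM against between 1360 and 2695 CPM, with mid-gestation dog 3 the highest. No gene of this list was at 0 in any of the 7 dogs. The complement list shares C1QB and C1QC with this one, and all 10 of its genes had a ratio below 0. Its inhibitor SERPING1 was at 546 and 422 CPM against between 609 and 1065 CPM, a log2 ratio of -0.89 ± 0.29.

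Of 7 other pump subunits with a symbol, looked up after TCIRG1 was seen, 5 had a ratio below 0 and 2 above it. ATP6V0B and ATP6V0C, of the membrane sector, were at 87.8 and 95.9 CPM and 68.1 and 68.1 CPM against between 195 and 306 CPM and between 132 and 212 CPM. ATP6V0A4, an alternative to the TCIRG1 subunit known from kidney, was at 8.65 and 11.3 CPM against 2.20, 5.50, 3.22, 2.92 and 2.95 CPM, a log2 ratio of 1.57 ± 0.41. All 7 tested lysosomal genes had a ratio below 0, but their list shares TCIRG1 with that of myeloid cells and is not separate from it. Among them CTSB, the protease cathepsin B, was at 348 and 296 CPM against between 505 and 791 CPM.

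Lymphocyte, antigen presentation and interferon genes held no gene with an unadjusted p-value below 0.01 among 7, 5 and 13 tested. CD2, of T and natural killer cells, was at 6.06 and 4.72 CPM against between 6.54 and 15.6 CPM, and GZMA, granzyme A, stayed below 3 CPM in every dog of both groups. The class II genes DLA-DRB1 and DLA-DMA were at 723 and 907 CPM and 43.3 and 47.9 CPM against between 802 and 1876 CPM and between 41.5 and 122 CPM, and reads of DLA genes can be split among near copies. OAS3, an antiviral synthetase, was at 9.43 and 11.0 CPM against between 2.21 and 8.39 CPM, while IRF7 was at 0.782 and 2.41 CPM against between 1.83 and 3.34 CPM.

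Of 22 cytokines, chemokines and acute phase genes tested, 19 had a ratio below 0 and 1 had an unadjusted p-value below 0.01. CCL14, a chemokine present in normal tissue, was at 3.23 and 3.54 CPM against 8.18, 8.01, 20.1, 13.9 and 13.9 CPM, a log2 ratio of -1.92 ± 0.59, and CXCL14 was at 8.70 and 7.69 CPM against between 13.2 and 45.2 CPM. The inflammatory chemokine CXCL8 was at 10.1 and 4.72 CPM against 2.88, 7.70, 5.93, 177 and 28.1 CPM, with mid-gestation dog 4 far above the other dogs. IL1B was at 0.489 and 0.103 CPM against between 0.105 and 2.04 CPM and CCL3 at 0.880 and 0 CPM against between 0.575 and 6.63 CPM. CCL13 had 0 reads in both luteal regression dogs and between 0 and 36 at mid-gestation, and a count of 0 allows up to 3 reads, or 0.154 CPM. SAA1 was not paired with a tested gene.

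The collagens and other matrix proteins held no gene with an unadjusted p-value below 0.01 among 8 and 16 tested, and their median log2 ratios were 0.00 and 0.16. COL1A1 was at 698 and 1059 CPM against 4143, 605, 1304, 2657 and 1783 CPM and COL3A1 at 1053 and 1583 CPM against 3673, 1076, 1352, 2517 and 2112 CPM. The mid-gestation dogs differed several-fold in both, with dog 1 highest, and the groups overlapped. COL27A1, a cartilage collagen, was higher without overlap at 51.4 and 29.0 CPM against 13.1, 8.01, 15.6, 13.8 and 13.1 CPM, a log2 ratio of 1.66 ± 0.66, and COL4A5 was at 96.0 and 141 CPM against between 51.2 and 123 CPM. LAMA2, a laminin of the basement membrane, was at 347 and 368 CPM against between 138 and 254 CPM and CRISPLD2 at 571 and 896 CPM against between 378 and 692 CPM. ECM2 was at 142 and 122 CPM against between 44.2 and 137 CPM. In contrast TIMP1, an inhibitor of the matrix metalloproteinases, was at 194 and 136 CPM against 1165, 507, 1017, 570.3 and 906 CPM, a log2 ratio of -2.33 ± 0.58. Every mid-gestation dog was more than 2 times above the higher luteal regression dog. MMP1, the interstitial collagenase, was at 14.1 CPM in luteal regression dog 1 and 0.103 CPM in dog 2, against between 0.0525 and 0.883 CPM, so that 1 dog carried its ratio.

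Of 9 tested genes of fibroblasts and stroma, 7 had a ratio above 0 and 2 below it, with a median of 0.20. The gene with an unadjusted p-value below 0.01 was one of the latter. CD248, endosialin of fibroblasts and pericytes, was lower at 7.38 and 7.33 CPM against 23.5, 12.1, 16.6, 23.2 and 19.1 CPM, a log2 ratio of -1.36 ± 0.30. PDGFRA, the fibroblast receptor of platelet-derived growth factor, was higher at 197 and 183 CPM against 108, 82.3, 108, 106 and 132 CPM, a log2 ratio of 0.82 ± 0.40, and GLI2, a transcription factor of hedgehog signalling, at 15.5 and 21.7 CPM against 10.9, 4.47, 5.30, 5.53 and 6.22 CPM, a log2 ratio of 1.52 ± 0.61. None of these groups overlapped. The summed level of the 9 stromal genes was between 408 and 418 CPM against between 227 and 387 CPM, and none of them was at 0 in the 7 dogs. The pericyte genes MCAM and TAGLN overlapped between the groups, at 61.4 and 87.8 CPM and 116 and 131 CPM against between 35.6 and 177 CPM and between 47.4 and 447 CPM.

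The circadian clock, a loop of factors that repress their own transcription over the day, was the list with the most genes higher in luteal regression at an unadjusted p-value below 0.01, 3 of 7 tested. Of the 7, 6 had a ratio above 0 and all 7 had an unadjusted p-value below 0.05, with a median log2 ratio of 0.83. PER3, a period gene of the negative limb of the clock, was at 148 and 136 CPM in luteal regression and at 76.7, 56.7, 51.2, 41.6 and 35.0 CPM at mid-gestation, a log2 ratio of 1.44 ± 0.42. PER2, its paralog, was at 42.1 and 63.2 CPM against 42.1, 14.7, 20.8, 21.6 and 20.7 CPM, a log2 ratio of 1.14 ± 0.36. The lower luteal regression dog and mid-gestation dog 1 were level for PER2, whereas the groups did not overlap for PER3. NR1D2, the repressor REV-ERB beta, was at 239 and 253 CPM against 189, 132, 122, 102 and 150.2 CPM, a log2 ratio of 0.83 ± 0.26. The output factors TEF and HLF, of the PAR bZIP family, were at 20.9 and 23.9 CPM and 74.6 and 70.6 CPM against between 8.53 and 21.1 CPM and between 24.4 and 51.3 CPM. CRY2, a cryptochrome, was at 36.7 and 39.9 CPM against between 21.3 and 32.0 CPM. NFIL3, which represses the same sites that TEF and HLF activate, went the other way at 62.0 and 17.2 CPM against 34.9, 96.4, 96.4, 111 and 140.5 CPM, a log2 ratio of -1.27 ± 0.58, with the luteal regression dogs far apart. The time of day of surgery is not given in the sources used here and its part in these values was not tested. Of the 7, PER3 and NR1D2 were DEG in the 7 dogs, 1 in DESeq2 and 6 in limma-voom.

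**Figure D5:**
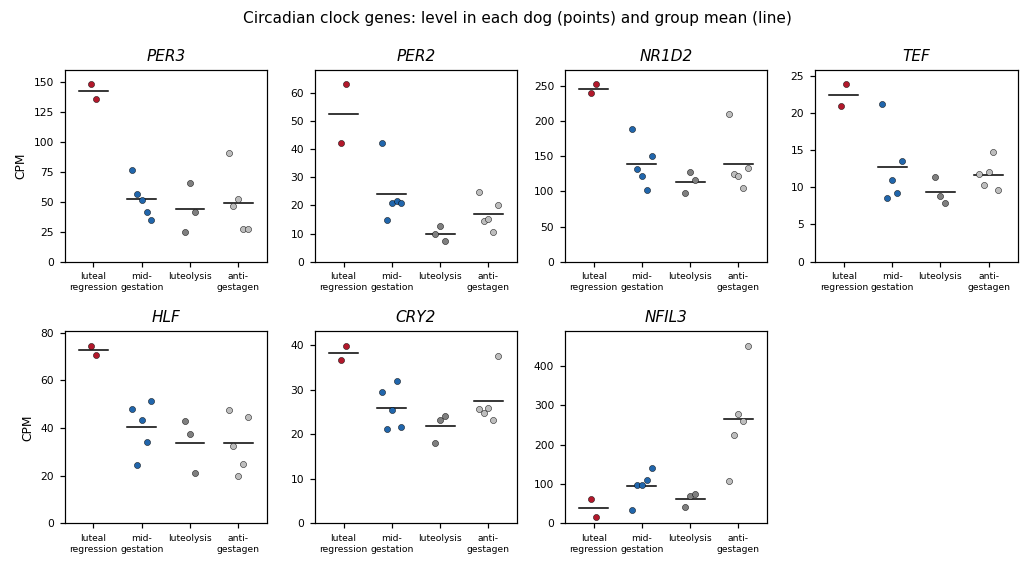
Level in CPM (vertical axis, from 0) of the 7 tested clock genes, with 1 point per dog and a line at each group's mean. The luteal regression dogs lie above all mid-gestation dogs for PER3, NR1D2, HLF and CRY2, and mid-gestation dog 1 reaches them for PER2 and TEF.

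In growth factor pathways an unadjusted p-value below 0.01 was found for 1 of 15 genes of WNT signalling and 1 of 13 of TGF-beta signalling. It was found for 0 of 8 of insulin-like growth factor and relaxin. The share among all genes with a symbol was 7.98%. WNT4, a ligand of ovarian development, was at 6.16 and 6.10 CPM against 2.57, 2.00, 2.96, 2.09 and 1.76 CPM, a log2 ratio of 1.43 ± 0.48, as the gene with an unadjusted p-value below 0.01 among 15 of WNT signalling, and WNT9A was at 6.89 and 7.54 CPM against between 4.23 and 5.00 CPM. INSL3, an insulin-like peptide of theca and luteal cells, was at 453 and 478 CPM against 1074, 1982, 2147, 789 and 1280 CPM, a log2 ratio of -1.64 ± 0.78. IRS1, a substrate of the insulin receptor, was at 28.7 and 30.6 CPM against between 11.97 and 22.5 CPM. Among 13 genes of TGF-beta signalling the gene below 0.01 was ENG, and the activin receptor ACVR1B was at 10.7 and 12.7 CPM against between 4.62 and 9.27 CPM.

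Of 9 apoptosis genes, 5 had a ratio below 0 and 4 above it, and the groups did not overlap for 3 lower and 2 higher. Such separation held for 22.5% (lower) and 16.3% (higher) of all genes with a symbol. CYCS, cytochrome c, was at 54.1 and 67.2 CPM against 94.2, 149, 112, 118 and 88.2 CPM, a log2 ratio of -0.89 ± 0.27, and was the gene of this list with an unadjusted p-value below 0.01. TNFRSF1A, a receptor of tumour necrosis factor, was at 25.3 and 24.4 CPM against between 29.6 and 46.2 CPM. In endoplasmic reticulum stress 9 of 10 genes had a ratio below 0, and SDF2L1 was at 8.26 and 10.1 CPM against between 16.8 and 24.4 CPM and TRIB3 at 0.880 and 1.49 CPM against between 2.06 and 3.99 CPM. Of the antioxidant genes, 6 of 7 had a ratio below 0, and GPX3 was at 513 and 609 CPM against between 819 and 1604 CPM and TXN at 9.29 and 9.39 CPM against between 12.6 and 17.9 CPM. The 6 glucocorticoid-responsive genes had 3 ratios above 0 and 3 below. Of these C10orf10 was at 15.1 and 11.3 CPM against 27.2, 40.0, 23.5, 51.5 and 64.8 CPM, a log2 ratio of -1.65 ± 0.53.

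None of the 14 tested genes of the cell cycle list had an unadjusted p-value below 0.01 or below 0.05, and the groups overlapped for all of them. The D-type cyclin CCND3, which was lower in luteal regression without overlap as given above, is not on this list. CCNA2, cyclin A2, was at 4.01 and 6.51 CPM against 3.83, 11.2, 2.84, 7.51 and 5.53 CPM. CDC20 and UBE2C, which act at the exit from mitosis, were at 7.87 and 13.3 CPM and 3.52 and 7.80 CPM against between 9.34 and 23.7 CPM and between 4.10 and 16.1 CPM. Immediate early genes were likewise without such a gene among 9. JUN was at 80.5 and 33.2 CPM against 58.6, 86.5, 37.9, 227 and 53.4 CPM and FOS at 569.9 and 105 CPM against 115, 946, 135, 2189 and 386 CPM, while MYC was at 74.3 and 77.7 CPM against 80.1, 127, 62.8, 394 and 77.7 CPM. Mid-gestation dog 4 was the highest of the 7 dogs for these 3 genes. FOSL2 was at 52.8 and 47.2 CPM against between 14.0 and 39.5 CPM.

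Markers of other tissues could be tested for few genes. OVGP1, of tubal epithelium, was at 31.3 and 22.6 CPM against between 8.55 and 13.9 CPM, whereas UPK1B, of surface epithelium, was at 6.94 and 6.57 CPM and overlapped between the groups. PPBP, of platelets, was at 0.342 and 0.462 CPM against between 1.15 and 2.26 CPM. PMP22, listed for nerve and Schwann cells, was at 135 and 130.1 CPM against between 59.1 and 112 CPM. Of the 3 tested genes of that list, 2 had a ratio above 0 and 1 below it. INHBA, of granulosa cells, was at 35.0 and 37.7 CPM against between 30.5 and 61.4 CPM. Among signs of library makeup, the ribosomal 5_8S_rRNA gene was at 13.9 and 19.1 CPM against 112, 72.5, 166, 201 and 153 CPM and the mitochondrial transcript ND3 at 1082 and 799 CPM against 2976, 3103, 6004, 1669 and 1841 CPM, with log2 ratios of -3.09 ± 0.83 and -1.73 ± 0.56. ND2 was at 2718 and 1599 CPM against between 2997 and 4725 CPM. Libraries were made by poly-A enrichment, and the part of these differences in the results above was not tested. The ribosomal protein RPL4 was at 8.11 and 9.18 CPM against between 2.94 and 7.62 CPM without overlap, whereas both identifiers of RPS24 overlapped, and the summed level of the 3 was between 1277 and 1279 CPM against between 871.5 and 1398 CPM.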

How the data were processed

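Messenger RNA of CL was sequenced single end after poly-A enrichment with a kit that does not keep strand. According to the submitters' processing notes the authors used STAR 2.5.1b, featureCounts and the genome build CanFam3.1, and the deposited values are raw counts of reads per Ensembl gene. All 3148 counts of at least 10000 were found rounded to 4 significant digits. The labels gave the groups, and all 15 columns were mapped.

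The fit took the 14922 genes whose count averaged 10 or more in any group. The analysis used R 4.3.3 with edgeR 4.0.16 (TMM, 1 mean per group, two-sided quasi-likelihood F-test, Benjamini-Hochberg adjustment over the 14685 genes tested), limma 3.58.1 and DESeq2 1.42.0. The SE was the absolute log2 ratio divided by the square root of F. Log2 CPM for the spread within groups used a prior count of 2. The scripts were tested on simulated data. Dogs are separate animals, so replicates are biological.

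Symbols came from the identifier and name columns of the study's supplementary tables (2969 of 3261 identifiers). The values in those tables were not used, but a gene had a symbol only if it was listed in one of them. Named genes were, by rule, DEG of smallest p-value or largest ratio, DEG of 39 gene lists or else the 2 members of smallest p-value, and a fixed set of luteal genes. As there were 0 DEG, the 10 genes of smallest p-value in each direction that were DEG in 3 alternative fits without overlap were added after the values were seen. Of the 940 listed genes 305 were paired by symbol with a gene tested. Others may be among the genes tested without a symbol. Some listed genes are counted but not reported here by name. The members and lists were chosen with earlier results of these data known. Alternatives covered scaling, filters, tests, thresholds, the dogs in the fit and leaving out each dog.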

Additional observations from a re-analysis of the deposited data

Results flagged for a closer look

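Within the 5 mid-gestation dogs, 12 of the 134 gene identifiers behind the named genes had 1 dog set apart from the other 4 by Dixon's test. For normally distributed values chance sets 1 dog apart in about 1 in 20 groups. The test was run on CPM without a log transform, and genes of the same dog are not independent. The count of 12 therefore cannot be judged against that rate. Of these, 6 concern mid-gestation dog 3, in which ADIPOR1 was at 169 CPM, ATP6V0B at 306 CPM, CD2 at 15.6 CPM, CEBPB at 19.3 CPM, CTSB at 791 CPM and TPI1 at 799.8 CPM, each the highest of its group. In mid-gestation dog 4 the highest values were 177 CPM for CXCL8, 227 CPM for JUN and 394 CPM for MYC. In mid-gestation dog 1 they were 10.9 CPM for GLI2 and 42.1 CPM for PER2. In mid-gestation dog 2 CCND3 was the lowest of its group at 35.6 CPM. No dog was left out of the values above for this reason.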

How the results depend on the processing

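With all 15 dogs edgeR gave 0 DEG, and the count stayed at 0 with DESeq2's size factors, upper-quartile scaling, the robust fit, no filter, a mean count of at least 50, an adjusted p-value below 0.05, and, chosen after seeing the data, without the 3 luteolysis or the 5 antigestagen dogs. Leaving out each dog gave between 0 and 1 DEG. limma-voom gave 2741 DEG (1225 higher, 1516 lower), DESeq2 gave 332 (81 higher, 251 lower) with or without Cook's filter, and the 7 dogs alone gave 770 (224 higher, 546 lower). Leaving out each of the 7 gave between 0 and 1515, an alternative chosen after seeing the data. Of the 39 lists, 0 held a DEG in the 15-dog edgeR test, against 31 with limma-voom, 20 with DESeq2 with or without Cook's filter and 24 with the 7 dogs. The count at an unadjusted p-value below 0.01 fell from 428 to 66 without luteal regression dog 1, to 137 without luteal regression dog 2 and to 282 without mid-gestation dog 3, and was 685 without luteolysis dog 1 and 647 without antigestagen dog 5. The causes were not tested.

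The sign of the log2 ratio was the same in every alternative for 131 of the 133 named genes. The alternatives reuse the same dogs, and many of these genes were named for a small p-value or groups without overlap. The same sign is therefore no independent check. The log2 ratio of CCNA2 was 0.07 without luteal regression dog 1 and 0.13 without mid-gestation dog 2, within a leave-one-out range of -0.63 to 0.13. That of UPK1B was -0.12 without mid-gestation dog 1, within -0.12 to 0.43. Of 532 group means, 521 moved by less than 1 SD with DESeq2's size factors. No paired analysis was possible because the groups are made up of different dogs. Where 1 luteal regression dog was left out, the other was assumed to vary like the dogs of the other groups. With 2 luteal regression dogs the spread within that group rests on 1 difference, and CPM below 1 rests on few reads.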
